A study of Zea mays with 6 samples.

Results

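The plastid genome of maize (Zea mays) was followed in developing endosperm, the starch-storing tissue of the kernel, in smk8-ref mutant and wild-type (WT) kernels. Members were all loci that the deposited table places on the plastid chromosome (Pt) and that reached 1 FPKM in at least 3 of the 6 libraries. FPKM is the number of sequenced fragments divided by transcript length in kilobases and by library size, and thus a level corrected for length. Of 48 plastid loci, 47 met this rule, among 36781 loci in the table, of which 15858 passed the same filter and were tested. The locus left out, GRMZM5G818111 (Pt, 139291 to 139807, plus strand), lay between 0.0993 and 0.112 FPKM in smk8-ref and between 0.0769 and 0.126 FPKM in WT, while the lowest member mean in smk8-ref was 15.3 FPKM.

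The 6 libraries were made from endosperm collected 12 days after pollination, 3 from the mutant smk8-ref and 3 from WT. The series text calls the 3 libraries of a genotype biological repeats, but whether each came from a separate ear is not stated, so the p-values speak for the scatter among these 6 libraries. The gene affected in smk8-ref and the genetic background are not given in the labels. Each value below is a relative level in a bulk tissue, so fewer plastids or plastid-rich cells and less RNA per cell cannot be told apart.

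Plastids keep a small genome that encodes part of the photosynthetic machinery, an NADH dehydrogenase-like (NDH) complex, a chloroplast-type ATP synthase, ribosomal proteins and an RNA polymerase. That plastid-encoded polymerase (PEP) transcribes chiefly photosynthesis genes, while a phage-type polymerase encoded in the nucleus (NEP) transcribes housekeeping genes that include rpoB and its neighbours. In endosperm, plastids differentiate into amyloplasts, which make and store starch, and many of their genes are transcribed in clusters and carried on shared RNAs. Plastid RNAs carry no stable poly(A) tail, and the labels do not say how messenger RNA was enriched, so plastid levels were not compared with nuclear levels.

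Across the plastid genome, most loci had lower means in smk8-ref than in WT, by amounts that differed between functional classes. The log2 change, smk8-ref over WT on the log2(FPKM + 1) scale, was below 0 for 41 of the 47 members, against 44.5% of all tested loci. Without the 2 loci listed near 0 in some libraries, it was below 0 for 39 of 45. The median change was -0.47 over the members and 0.05 over all tested loci. Photosystem, ATP synthase, NDH and RNA polymerase genes had medians between -0.63 and -0.59, whereas ribosomal protein genes had a median of -0.12.

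A single member passed the test at an adjusted p under 0.05 (limma, Benjamini-Hochberg adjustment over all tested loci), a ycf73-A locus that fell, and no member rose. Over all tested loci 7.60% passed, 4.21% lower and 3.39% higher. At an unadjusted p under 0.05, 22 members were lower and 0 higher, against 13.2% lower and 15.1% higher over all tested loci. In 15 members all 3 smk8-ref libraries lay below all 3 WT libraries, and in 0 members above them, against 15.9% and 18.7% of all tested loci. The members share transcripts, libraries and scaling, so these counts are not sums of independent events.

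**Figure D1:**
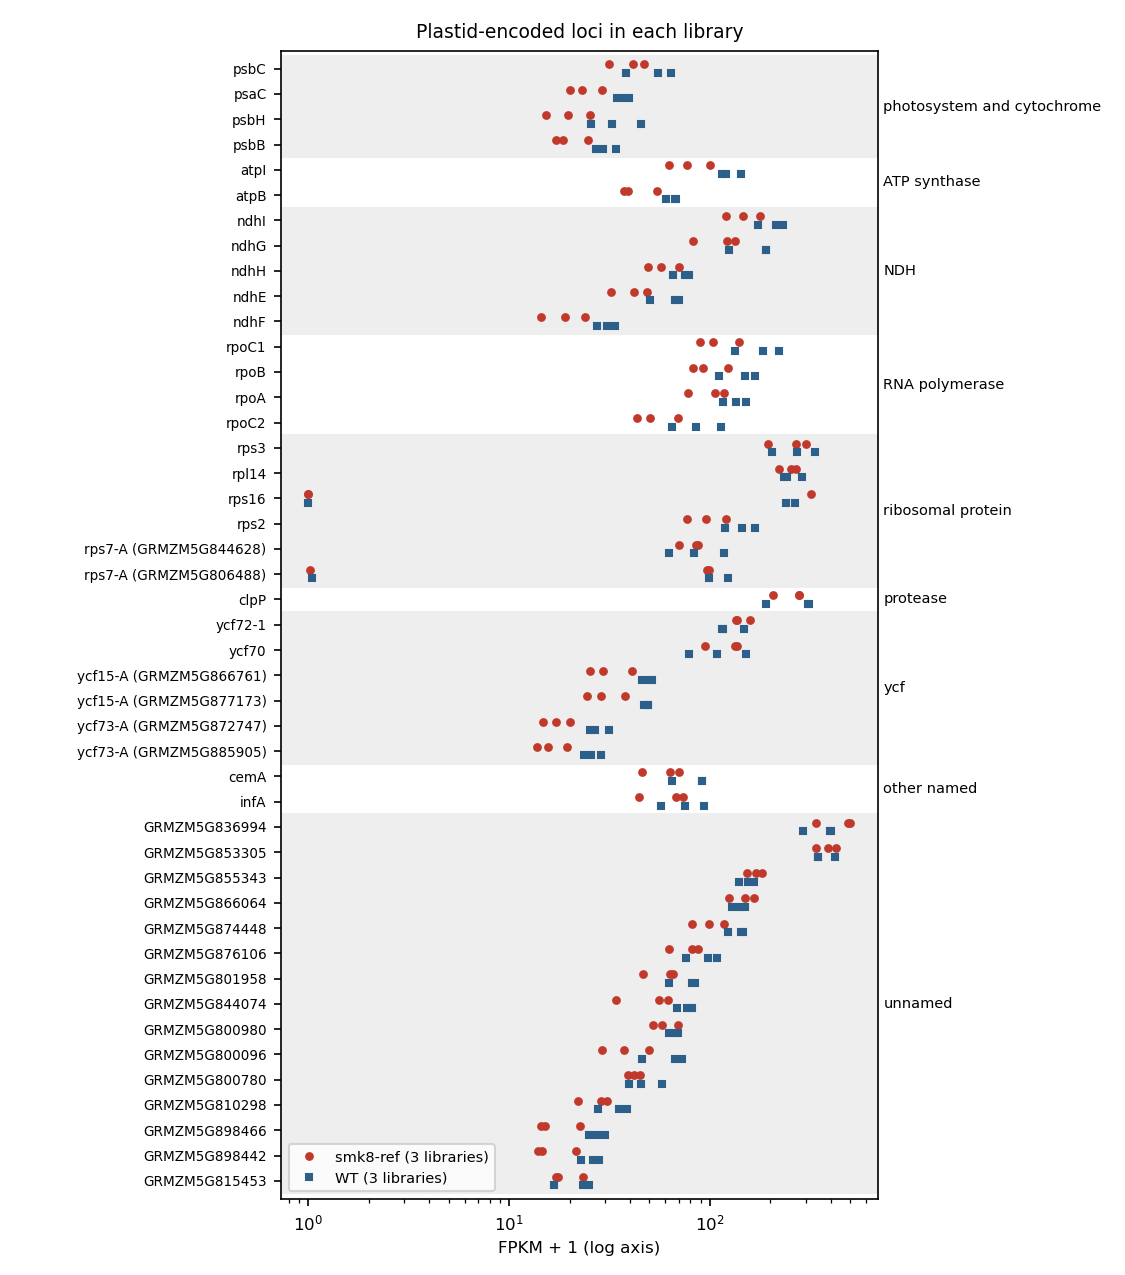
FPKM + 1 of 45 of the 47 plastid loci (log axis) in the 3 smk8-ref libraries (circles) and the 3 WT libraries (squares), grouped by class. All smk8-ref points lie left of all WT points in 3 of 4 photosystem, 2 of 2 ATP synthase and 2 of 5 NDH loci. The ribosomal protein loci overlap, and rps16 and a rps7-A locus are listed at or near 0 in some libraries of both groups.

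Individual libraries moved with these levels. Among the 45 members that were not listed near 0 anywhere, smk8-ref replicate 2 was the lowest smk8-ref library in 44 and smk8-ref replicate 3 the highest in 43. WT replicate 2 was the highest WT library in 36, and WT replicate 3 the lowest in 35. As a share of all FPKM in a library, the plastid loci together held 1.61%, 1.20% and 1.76% in smk8-ref, against 1.62%, 2.13% and 1.48% in WT. The groups overlapped, with means of 1.52 ± 0.291% in smk8-ref and 1.74 ± 0.341% in WT (SD, n = 3 each). The difference of -0.22 percentage points was -0.03 without WT replicate 2 and -0.06 without smk8-ref replicate 2. The plastid median log2 change was -0.29 without smk8-ref replicate 2 and -0.11 after quantile normalization. Without that library the log2 changes of clpP, rpl14, rps3 and the rps7-A locus GRMZM5G844628 were above 0.

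The photosystem class held 4 loci, all with lower means in smk8-ref, and none passed the test. No plastid locus matched psaA, psaB or psbA by name or place, so the class covers only part of the photosystem genes. psaC encodes an iron-sulfur subunit of photosystem I (Pt, 111760 to 112005, minus strand). It had 22.1, 19.1 and 28.2 FPKM in smk8-ref, against 36.9, 38.4 and 33.3 FPKM in WT. Every smk8-ref library lay below every WT library. The log2 change was -0.64 ± 0.16 (SE) with an adjusted p of 0.060 (limma), just outside the threshold, and it was under the threshold with TMM scaling (adjusted p = 0.048) and with a filter at 5 FPKM (adjusted p = 0.045).

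psbB encodes the CP47 core antenna protein of photosystem II (Pt, 70706 to 72490, plus strand). It had 17.5, 16.2 and 23.65 FPKM in smk8-ref, against 26.2, 32.9 and 28.5 FPKM in WT. The groups did not overlap, and the log2 change was -0.60 ± 0.17 (limma adjusted p = 0.081). Downstream on the same strand lies psbH (Pt, 72774 to 73328), which encodes a small phosphoprotein of photosystem II. It had 18.75, 14.3 and 24.4 FPKM in smk8-ref, against 31.7, 44.2 and 24.6 FPKM in WT. The groups were separated by the narrow gap between smk8-ref replicate 3 and WT replicate 3, and the log2 change of -0.77 ± 0.26 (limma adjusted p = 0.12) was the most negative among members not listed near 0.

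The locus named psbC (Pt, 6392 to 12986, plus strand) is long and covers the RefSeq plastid genes psbK, psbI, psbD, psbC and psbZ, so its level cannot be given to any of these photosystem II genes alone. It had 40.5, 30.5 and 45.8 FPKM in smk8-ref, against 54.5, 63.2 and 37.1 FPKM in WT. WT replicate 3 lay between smk8-ref libraries, so the groups overlapped, and the log2 change was -0.38 ± 0.23 (limma adjusted p = 0.33).

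Both ATP synthase loci had lower levels in every smk8-ref library than in any WT library, and neither passed the test. No plastid locus matched atpA or atpF by name or place. atpI, a subunit of the membrane rotor-stator sector, is listed together with atpH (Pt, 32820 to 34639, plus strand). It had 75.9, 61.8 and 98.8 FPKM in smk8-ref, against 120, 142 and 114 FPKM in WT, a log2 change of -0.68 ± 0.19 (limma adjusted p = 0.078). atpB, the catalytic beta subunit, shares its locus with atpE (Pt, 54176 to 56114, minus strand). It had 38.3, 36.5 and 53.6 FPKM in smk8-ref, against 65.75, 66.6 and 59.8 FPKM in WT, a log2 change of -0.59 ± 0.17 (limma adjusted p = 0.078).

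The 5 named NDH loci encode subunits of the complex that moves electrons from reduced ferredoxin into the plastoquinone pool. All had lower means in smk8-ref and none passed the test. The most abundant, ndhI, had 145, 120 and 178 FPKM in smk8-ref, against 231, 211.5 and 172 FPKM in WT. WT replicate 3 lay below smk8-ref replicate 3, so these groups overlapped (log2 change -0.48 ± 0.19, limma adjusted p = 0.15). ndhG had 121, 81.3 and 132 FPKM in smk8-ref, against 190, 189 and 124 FPKM in WT. It overlapped in the same way (log2 change -0.59 ± 0.25, limma adjusted p = 0.17).

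ndhH, at the upstream end of the same cluster, had 56.0, 48.4 and 69.2 FPKM in smk8-ref, against 77.9, 74.45 and 64.6 FPKM in WT. The groups overlapped and its change was the smallest of the class (log2 change -0.33 ± 0.16, limma adjusted p = 0.24). ndhF, which stands apart from the cluster (Pt, 105072 to 107369, minus strand), had 17.95, 13.5 and 22.8 FPKM in smk8-ref, against 29.7, 32.7 and 26.3 FPKM in WT. No libraries overlapped, and the change was the most negative of the class (log2 change -0.71 ± 0.20, limma adjusted p = 0.077). ndhE, with means of 39.85 ± 8.23 FPKM in smk8-ref and 61.5 ± 10.9 FPKM in WT (SD, n = 3 each), also had no overlap (log2 change -0.62 ± 0.20, limma adjusted p = 0.11).

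The 4 rpo genes encode the core subunits of PEP. All 4 had lower means in smk8-ref, all 4 overlapped between groups, and none passed the test. rpoB, the beta subunit (Pt, 21468 to 24695, plus strand), had 91.0, 81.6 and 123 FPKM in smk8-ref, against 148, 166.5 and 110 FPKM in WT. WT replicate 3 lay below smk8-ref replicate 3 (log2 change -0.52 ± 0.21, limma adjusted p = 0.17). rpoC1, the beta-prime subunit, had 102, 88.4 and 138 FPKM in smk8-ref, against 183.5, 221 and 133 FPKM in WT. The overlap was again between both replicates numbered 3 (log2 change -0.70 ± 0.24, limma adjusted p = 0.12).

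rpoC2, the beta-double-prime subunit, had 49.2, 42.2 and 68.8 FPKM in smk8-ref, against 84.8, 112.5 and 64.0 FPKM in WT, with a log2 change of -0.69 ± 0.25 (limma adjusted p = 0.14). rpoA, the alpha subunit, is encoded elsewhere, at the end of the large ribosomal protein cluster (Pt, 75623 to 77189, minus strand). It had 105.5, 76.9 and 117 FPKM in smk8-ref, against 134, 151 and 116 FPKM in WT. Its overlap was marginal, with the highest smk8-ref library just above the lowest WT library (log2 change -0.43 ± 0.19, limma adjusted p = 0.19).

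The ribosomal protein class had the median change nearest 0 among the classes with more than 1 named locus. All 8 log2 changes were below 0, though those of rps16 and GRMZM5G806488 come from values at or near 0 in some libraries. All 8 groups overlapped, and none passed the test. The class median was 0.13 after quantile normalization, 0.05 scaled to the plastid sum, 0.03 without smk8-ref replicate 2 and 0.03 without WT replicate 2, so its direction was not stable. rps3, a small-subunit protein whose locus also covers rpl22, had 269, 194 and 301 FPKM in smk8-ref, against 272, 333 and 203 FPKM in WT (log2 change -0.08 ± 0.24, limma adjusted p = 0.86). The spread within a genotype was wider than the distance between genotypes.

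rpl14, a large-subunit protein, had 253, 221 and 269 FPKM in smk8-ref, against 233, 288 and 242.5 FPKM in WT, the smallest difference of the class (log2 change -0.04 ± 0.15, limma adjusted p = 0.89). The signs of rpl14 and rps3 turned positive under some scalings and in some sets with 1 library left out. Apart from that pair, rps2 had 94.8, 75.9 and 119 FPKM in smk8-ref, against 144, 168 and 118 FPKM in WT. It sits between rpoC2 and atpI, and its log2 change of -0.57 ± 0.21 (limma adjusted p = 0.13) was near theirs.

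Values at or near 0 decided the changes of rps16 and of the rps7-A locus GRMZM5G806488. rps16 was listed at 318, 0 and 0 FPKM in smk8-ref, against 0, 238 and 265 FPKM in WT. Zeros thus occurred in both genotypes beside high values. The rps7-A locus GRMZM5G806488 (Pt, 92870 to 131084, plus strand) was listed at 96.1, 0.0135 and 98.5 FPKM in smk8-ref, against 98.35, 122.5 and 0.0433 FPKM in WT. It spans the 2 inverted-repeat arms and overlaps the rps7-A locus GRMZM5G844628, which had 86.7, 69.2 and 83.9 FPKM in smk8-ref, against 82.5, 117 and 61.4 FPKM in WT. No fold from the main fit is given for rps16 or GRMZM5G806488. Without them, the class median over the other 6 ribosomal loci was -0.10.

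The locus named clpP, for the proteolytic subunit of the plastid Clp protease, covers 6 RefSeq genes (psaJ, rpl33, rps18, rpl20, clpP and rps12; Pt, 66312 to 70204, minus strand). It had 278, 205 and 279 FPKM in smk8-ref, against 311.5, 308 and 189 FPKM in WT. The groups overlapped, with WT replicate 3 the lowest of all 6 libraries, and the log2 change of -0.06 ± 0.24 (limma adjusted p = 0.89) changed sign under several alternatives. infA, a translation initiation factor, had 66.55, 43.5 and 72.7 FPKM in smk8-ref, against 73.9, 92.5 and 55.9 FPKM in WT, with overlap (log2 change -0.28 ± 0.25, limma adjusted p = 0.50). The cemA locus, which also covers psaI, ycf4 and petA, had 62.1, 44.8 and 69.3 FPKM in smk8-ref, against 90.2, 90.35 and 63.5 FPKM in WT. WT replicate 3 lay among the smk8-ref libraries (log2 change -0.47 ± 0.21, limma adjusted p = 0.21).

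The ycf class, hypothetical chloroplast reading frames, split into a lower-abundance group and 2 abundant loci. ycf73-A GRMZM5G872747 (Pt, 87875 to 88396, plus strand) had 16.1, 13.8 and 19.05 FPKM in smk8-ref, against 24.3, 30.55 and 25.65 FPKM in WT. Every smk8-ref library lay below every WT library. It fell, with a log2 change of -0.69 ± 0.16 (limma adjusted p = 0.048), the 1 call among the members. The call was lost in 15 of 19 other settings, among them the replicate block (adjusted p = 0.10) and every fit with 1 library left out (adjusted p between 0.063 and 0.14), while the change stayed between -0.80 and -0.47.

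The inverted repeat holds a second copy of ycf73-A, GRMZM5G885905, in which smk8-ref had 14.6, 12.8 and 18.5 FPKM, against 22.6, 27.6 and 24.5 FPKM in WT (log2 change -0.68 ± 0.16, limma adjusted p = 0.053). Reads from the copies of an inverted repeat cannot be told apart by sequence, so the pair is not 2 observations. ycf15-A likewise occurs as a pair. GRMZM5G877173 had 27.7, 23.3 and 37.0 FPKM in smk8-ref, against 48.5, 48.2 and 46.0 FPKM in WT (log2 change -0.70 ± 0.17, limma adjusted p = 0.056). Its copy GRMZM5G866761 had 28.5, 24.4 and 39.8 FPKM in smk8-ref, against 45.1, 50.6 and 48.9 FPKM in WT (log2 change -0.65 ± 0.19, limma adjusted p = 0.079). Neither copy overlapped between genotypes. With TMM scaling, GRMZM5G885905 and GRMZM5G877173 were under the threshold (adjusted p = 0.039 and 0.042).

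The abundant ycf loci did not show lower means. ycf72-1 had 134, 136 and 158 FPKM in smk8-ref, against 148, 114 and 115 FPKM in WT (log2 change 0.19 ± 0.15, limma adjusted p = 0.45). It lies on the strand opposite the RefSeq gene rpl2, and since the sources do not say whether counting used strand, reads of both cannot be told apart. ycf70 had 133, 93.8 and 136 FPKM in smk8-ref, against 77.5, 108 and 151 FPKM in WT (log2 change 0.14 ± 0.27, limma adjusted p = 0.77). Both overlapped between groups, and the sign of ycf70 turned without WT replicate 1.

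**Figure D2:**
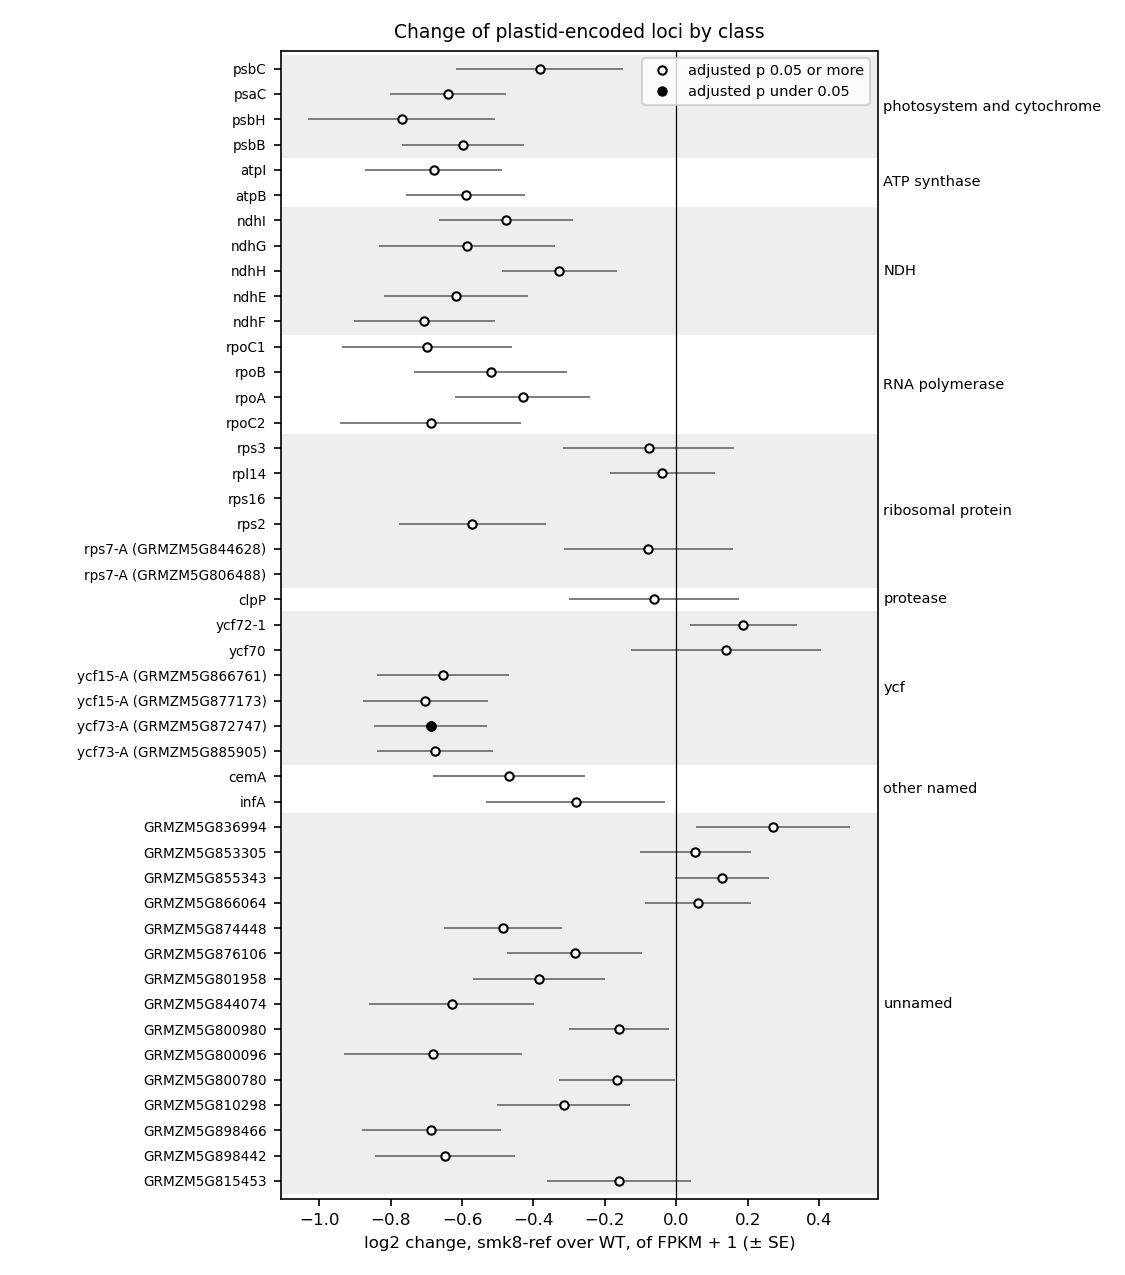
Log2 change, smk8-ref over WT, of FPKM + 1 with its SE for 43 of the 47 plastid loci by class; rps16 and the rps7-A locus GRMZM5G806488, listed at or near 0 in some libraries, are named without a point. The filled point is ycf73-A GRMZM5G872747 (-0.69, adjusted p = 0.048); open points did not pass, and the ribosomal protein class has a median of -0.12 against -0.63 to -0.59 for the photosystem, ATP synthase, NDH and RNA polymerase classes, with rps2 (-0.57) among the lower values.

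The table gives no name to 15 members, and 12 of them lie where RefSeq places a named plastid gene. None of the 15 passed the test, 4 had no overlap with smk8-ref lower, and the median log2 change was -0.28. The most abundant plastid locus, GRMZM5G836994 (Pt, 1674 to 3308, minus strand), lies at matK, the maturase for group II introns. It had 486, 338 and 501 FPKM in smk8-ref, against 291, 403 and 398 FPKM in WT. The groups overlapped, and its log2 change of 0.27 ± 0.22 (limma adjusted p = 0.45) was the most positive of all members. GRMZM5G853305, at the ribosomal protein gene rpl16, had 386, 339 and 425 FPKM in smk8-ref, against 343, 421 and 344.5 FPKM in WT (log2 change 0.05 ± 0.16, limma adjusted p = 0.86).

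GRMZM5G855343, at rps19, had 169, 151.5 and 181 FPKM in smk8-ref, against 166, 154 and 139 FPKM in WT, with overlap (log2 change 0.13 ± 0.13, limma adjusted p = 0.56). GRMZM5G866064, at an open reading frame, also overlapped (log2 change 0.06). At the rbcL gene, which encodes the large subunit of Rubisco, GRMZM5G815453 had 16.45, 16.2 and 22.2 FPKM in smk8-ref, against 15.7, 24.0 and 22.25 FPKM in WT. The libraries were interleaved (log2 change -0.16 ± 0.20, limma adjusted p = 0.64). GRMZM5G800780, at petB of the cytochrome b6f complex, averaged 41.1 ± 2.78 FPKM in smk8-ref and 46.7 ± 9.26 FPKM in WT (SD, n = 3 each; log2 change -0.17, limma adjusted p = 0.54). GRMZM5G801958 covers psbE, petL and petG and had a log2 change of -0.38 (limma adjusted p = 0.22). Not every photosynthesis locus had a change as negative as psaC or psbB.

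Among unnamed loci at NDH genes, the log2 change was -0.68 at ndhD (GRMZM5G800096), -0.49 at ndhA (GRMZM5G874448), -0.28 and -0.32 at the 2 copies of ndhB (GRMZM5G876106 and GRMZM5G810298), and -0.16 at ndhJ, ndhK and ndhC (GRMZM5G800980). The groups did not overlap at ndhA, with 98.3, 80.35 and 116 FPKM in smk8-ref, against 143, 146 and 122 FPKM in WT. GRMZM5G844074, at rps15, had 54.5, 33.0 and 60.8 FPKM in smk8-ref, against 76.1, 80.4 and 67.9 FPKM in WT, also without overlap (log2 change -0.63 ± 0.23, limma adjusted p = 0.13). GRMZM5G898466, where RefSeq lists no gene, had 14.1, 13.5 and 21.6 FPKM in smk8-ref, against 26.45, 28.9 and 24.05 FPKM in WT (log2 change -0.69 ± 0.19, limma adjusted p = 0.079). Its inverted-repeat partner GRMZM5G898442 had -0.65, and neither overlapped.

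With classes drawn from the RefSeq gene at each place, a choice made after seeing the data, the median was -0.49 for 6 photosystem and cytochrome loci, -0.48 for 10 NDH loci, -0.60 for 4 RNA polymerase loci and -0.08 for 11 ribosomal protein loci. The 11 ribosomal protein loci include ycf72-1, on the strand opposite rpl2, and rps16, listed at 0 in some libraries. Ribosomal proteins were again nearest 0, but many of the loci are those already in the named classes. No class was tested against another.

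Ratios inside a library do not depend on how that library was scaled. These ratios were chosen after the values were seen and carry no test. Summed FPKM of the 4 photosystem loci over that of the 6 ribosomal protein loci was 0.0901, 0.0931 and 0.10 in smk8-ref, against 0.128, 0.127 and 0.127 in WT. The smk8-ref libraries all lay below the WT libraries, and the WT libraries lay close together. The ATP synthase ratio was 0.104, 0.114 and 0.125 in smk8-ref, against 0.159, 0.148 and 0.179 in WT. The NDH ratio was 0.347, 0.342 and 0.368 in smk8-ref, against 0.509, 0.411 and 0.450 in WT.

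For the RNA polymerase genes the ratio was 0.317, 0.336 and 0.366 in smk8-ref, against 0.471, 0.463 and 0.436 in WT. In all 4 ratios the genotypes did not overlap, and the log2 differences of the group means lay between -0.50 and -0.37. The ycf ratio overlapped, with means of 0.337 ± 0.0157 in smk8-ref and 0.336 ± 0.0797 in WT (SD, n = 3 each), a sum dominated by ycf72-1 and ycf70.

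**Figure D3:**
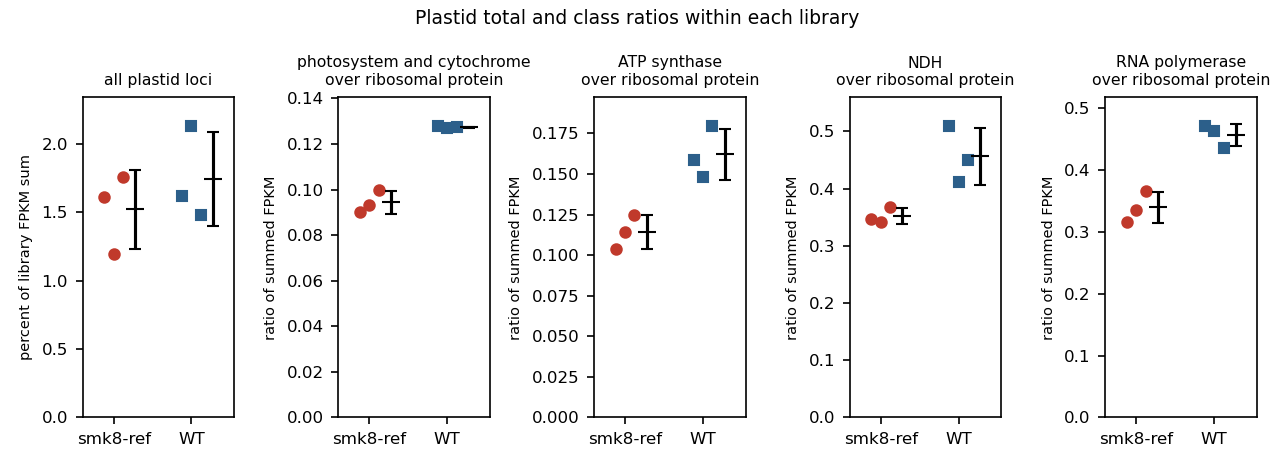
Left, plastid FPKM as a percent of each library's FPKM sum; right, summed FPKM of 4 classes over the summed FPKM of 6 ribosomal protein loci, per library, with the mean and SD (n = 3). The percent overlaps between smk8-ref and WT, while in each ratio the 3 smk8-ref libraries lie below the 3 WT libraries (photosystem means 0.0944 in smk8-ref and 0.127 in WT).

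Neighbouring loci on 1 strand, read in the direction of transcription, showed how the changes were arranged along clusters. In the ribosomal protein cluster the log2 changes were -0.08 at rps3, 0.05 at GRMZM5G853305, and -0.04 at rpl14, then -0.28 at infA and -0.43 at rpoA. Of these loci, infA and rpoA at the downstream end had the more negative values. Inside each library, rpoA over rps3 was 0.393, 0.397 and 0.388 in smk8-ref, against 0.492, 0.454 and 0.570 in WT, without overlap. rpl14 over rps3 overlapped, while infA over rps3 did not.

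From ndhH on, the ndh and psaC cluster had log2 changes of -0.33 at ndhH, -0.49 at GRMZM5G874448, -0.48 at ndhI, -0.59 at ndhG, -0.62 at ndhE, -0.64 at psaC and -0.68 at GRMZM5G800096. The locus just upstream of ndhH on the same strand, GRMZM5G844074 at rps15, had -0.63, so more negative values stood at both ends. psaC over ndhH was 0.395, 0.395 and 0.407 in smk8-ref, against 0.474, 0.515 and 0.516 in WT. These ranges did not overlap, nor did those of GRMZM5G874448, ndhI and ndhE over ndhH, whereas ndhG and GRMZM5G800096 over ndhH overlapped. The separation was thus not confined to the downstream end. From ndhH on, neighbouring changes differed by less than the standard error of either locus. Those errors include shifts of whole libraries that neighbours share, so they do not measure a difference within a library. The trend along the cluster was not tested.

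From rpoB to atpI the changes lay within a narrow range, at -0.52 for rpoB, -0.70 for rpoC1, -0.69 for rpoC2, -0.57 for rps2 and -0.68 for atpI. rpoC1 over rpoB was 1.123, 1.084 and 1.125 in smk8-ref, against 1.24, 1.33 and 1.21 in WT, without overlap, and atpI over rpoB overlapped. In the psbB cluster, psbB and psbH had -0.60 and -0.77, and GRMZM5G800780 at petB had -0.17.

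**Figure D4:**
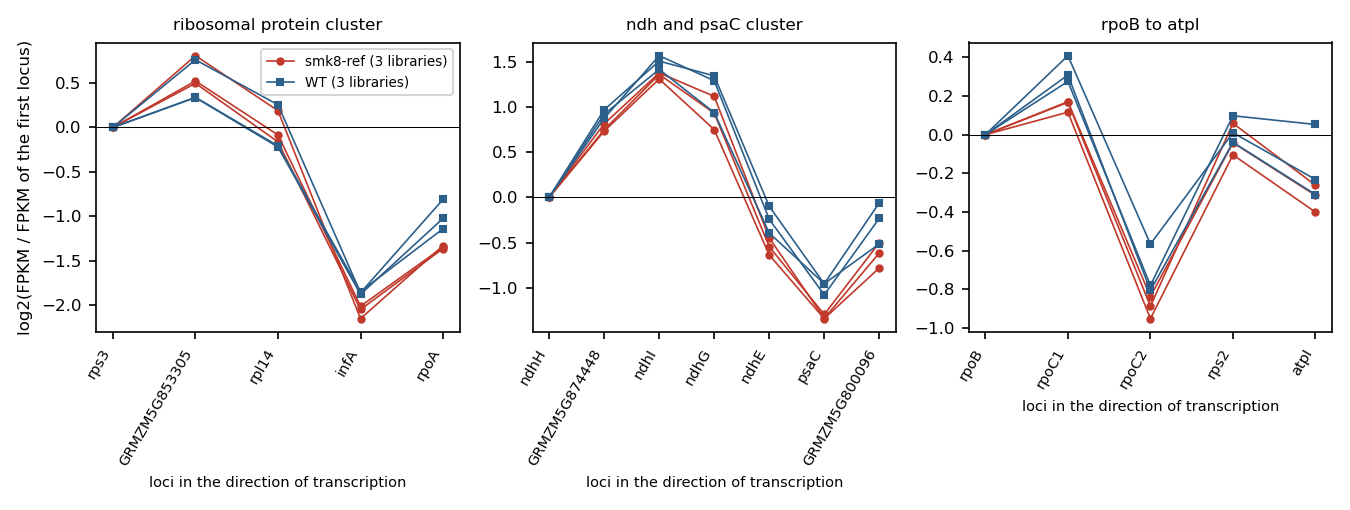
Log2 of the FPKM of each locus over that of the first locus of its cluster in the same library, in the direction of transcription, for 3 clusters; each line is 1 library (smk8-ref circles, WT squares). The smk8-ref lines lie below the WT lines at infA and rpoA, at GRMZM5G874448, ndhI, ndhE and psaC, and at rpoC1 and rpoC2. The genotypes mix at GRMZM5G853305, rpl14, ndhG, GRMZM5G800096, rps2 and atpI.

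When each plastid locus was scaled to its library's plastid sum, which removes the difference in the plastid total and was added after seeing the data, the member median was -0.25. Under this scaling ndhF fell (log2 change -0.49, limma adjusted p = 0.049), 0 loci rose and ycf73-A GRMZM5G872747 did not pass (adjusted p = 0.060). In the authors' deposited table, 45 of the 47 members were marked as having no change, rps16 as down and the rps7-A locus GRMZM5G806488 as up, and the q-values of the members lay between 0.742 and 0.9996. The authors' deposited table, from the same 6 libraries, also gave 41 members a log2 fold below 0, but not the same 41. There clpP and GRMZM5G806488 were above 0, and ycf70 and GRMZM5G853305 below 0, each opposite to the main fit.

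Several loci with plastid-style names lie outside the plastid chromosome and are not members. atpB on chromosome 6 (Zm00001d038929) had 62.2, 64.2 and 90.5 FPKM in smk8-ref, against 112.5, 123 and 142 FPKM in WT, and fell (log2 change -0.81 ± 0.18, limma adjusted p = 0.044). The compartment of its product is not given, and any relation of its fall to the plastid atpB locus was not tested. ycf72-1 on the mitochondrial chromosome (GRMZM5G861353) overlapped between groups, was listed near 0 in WT replicate 2, and did not pass (limma adjusted p = 0.41). psbA, the D1 protein of photosystem II, appeared on an unplaced contig (Zm00001d000417) at 172.5, 154 and 194 FPKM in smk8-ref, against 127, 134 and 137 FPKM in WT. Its smk8-ref libraries were all higher, but it did not pass the test (log2 change 0.37 ± 0.13, limma adjusted p = 0.12). The plastid chromosome held no psbA locus in these data, so psbA is absent from the photosystem class.

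Nuclear genes were looked up by name from a list drawn up for plastid gene expression or protein folding, and 7 names were tested. EFTS, a translation elongation factor, averaged 10.1 ± 1.74 FPKM in smk8-ref and 17.03 ± 1.57 FPKM in WT (SD, n = 3 each) and fell (log2 change -0.71 ± 0.15, limma adjusted p = 0.041). CPN60II, a chaperonin, averaged 48.7 ± 7.36 FPKM in smk8-ref and 80.5 ± 2.26 FPKM in WT and fell (log2 change -0.72 ± 0.14, limma adjusted p = 0.034). The compartment of either product, and of CPN60I and LON1 below, is not given by the table. Their changes are therefore not assigned to plastids. CPN60I had a log2 change of -0.89 (limma adjusted p = 0.073) without overlap. CAF1 and CAF2, splicing factors for plastid group II introns, WHY1 and Ij had changes between -0.25 and 0.33 and did not pass. Thus 2 of the 7 listed names fell and 0 rose, against 4.21% lower and 3.39% higher over all tested loci. A list of 7 names is too short for a comparison with those shares. Of 3 names added after their values were seen, CFM3 (-0.10) and TATC (0.28) did not pass. The added LON1, a Lon protease, averaged 30.7 ± 2.64 FPKM in smk8-ref and 19.2 ± 1.40 FPKM in WT (SD, n = 3 each) and rose (log2 change 0.65 ± 0.12, limma adjusted p = 0.032).

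Markers of other tissues were read beside these results. The nuclear photosynthesis genes RBCS, CAB1 and PSBQ1 summed to 1.16, 0.883 and 1.84 FPKM in smk8-ref, against 1.06, 1.43 and 0.970 FPKM in WT, near 0 and overlapping. PSAH, named after its values were seen, was listed at 12.1, 1.49 and 0.889 FPKM in smk8-ref, against 0.702, 0.645 and 0.208 FPKM in WT. Of the endosperm names, FIE1, a Polycomb gene expressed in endosperm, was present at 19.0, 20.3 and 31.1 FPKM in smk8-ref, against 25.7, 38.8 and 16.4 FPKM in WT. ESR1 and ESR3, genes of the embryo-surrounding region, averaged 2.81 ± 3.43 and 0.966 ± 0.730 FPKM in smk8-ref, against 1.71 ± 0.202 and 3.71 ± 0.840 FPKM in WT (SD, n = 3 each), and ESR3 fell (log2 change -1.31 ± 0.29, limma adjusted p = 0.043). The list drawn up for endosperm also held other names, among them zein names, which are not reported here. The mitochondrial chromosome made up 7.69%, 8.05% and 8.37% of the FPKM sum in smk8-ref, against 5.31%, 6.69% and 6.08% in WT, and its part in the plastid values was not tested. All 4 names found for embryo, meristem or oil bodies, KN-1, OBAP1A, OBAP2A and OBAP2B, had log2 changes above 0, between 0.54 and 1.15, and none passed. For KN-1 and OBAP2A every smk8-ref library lay above every WT library, while OBAP1A and OBAP2B overlapped. KN-1 was near 0 in WT replicate 1 (0.0327 FPKM). CR4, an aleurone gene, had a change of 0.29 without overlap and did not pass (limma adjusted p = 0.21). Over all tested loci, 18.7% were higher without overlap. The part of these tissues in the plastid values was not tested.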

How the data were processed

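RNA was measured by sequencing in 3 smk8-ref and 3 WT endosperm libraries, and grouped by the genotype in the labels. The authors deposited 1 table of FPKM values per transcript and library, made with HISAT and StringTie per the submitters' processing notes. Versions, roles, genome build and strandedness are not given in these sources, and read depth is unknown, so no counting interval is given. The deposited table also holds the authors' fold ratio, log2 fold, p-value and q-value, which were used only where named.

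Transcript FPKM were summed per locus. Loci at 1 FPKM or more in at least 3 libraries were tested on log2(FPKM + 1) with limma 3.58.1 (R 4.3.3), two-sided, with a variance trend and Benjamini-Hochberg adjustment over all 15858 loci, threshold 0.05. The pseudocount understates changes of low loci. The fit was tested on simulated data. Trimmed mean of M-values (TMM) scaling was computed directly, since FPKM are not counts. Other steps used Python 3.11.15 with pandas 2.3.3 and matplotlib 3.10.9.

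Classes follow the name in the table. RefSeq genes (assembly Zm-B73-REFERENCE-NAM-5.0) were assigned by place alone, since 0 locus IDs matched. Of 32 named members, 25 overlapped a RefSeq gene of the same name, and 27 shared a start or end with some RefSeq gene, while 10 members covered more than 1 RefSeq gene. Coordinates are the table's. Every member is named or counted, and library values are given in each class at least for the 3 most abundant loci, the extreme changes, any call and any locus listed at 0, except that 2 members count in their class and are not reported singly here. The members and lists were chosen with earlier results of these data known.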

Additional observations from a re-analysis of the deposited data

How the results depend on the processing

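Over all loci, 1205 passed (538 higher, 667 lower). The number was 388 without a filter, 779 with quantile normalization, 490 for single transcripts, and 28 to 1425 with 1 library left out. The balance was 510 higher and 1017 lower with TMM scaling, 651 and 513 scaled to the nuclear sum, 406 and 788 with a filter at 5 FPKM, and 885 and 540 without WT replicate 3. Plastid loci called lower numbered 1. They numbered 0 with a pseudocount of 0.1, no filter, TPM scaling, quantile normalization, nuclear sum scaling, single transcripts, no variance trend and any 1 library left out (0 to 0). They numbered 2 with a pseudocount of 5, and 4 with a filter at 5 FPKM or with TMM scaling.

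Same-numbered libraries showed little shared deviation (correlations of 0.007, -0.009 and 0.083 over loci, which are not independent replicates). Other pairs ran between -0.106 and 0.099. With 3 libraries per genotype, these values cannot show whether the numbers mark pairs, and the main fit used none. With a replicate block, 36 loci passed over the table and 0 plastid loci.

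Under quantile normalization, the median log2 change was -0.11 over plastid members, -0.29 for ATP synthase, -0.20 for NDH, -0.20 for RNA polymerase and 0.13 for ribosomal proteins. Scaled to the plastid sum, the NDH median was -0.36 and the ribosomal protein median 0.05, and the ycf median was -0.27 after summing loci of 1 name. With 1 library left out, medians ran between -0.61 and -0.29 over plastid members, -0.77 and -0.50 for photosystem, -0.81 and -0.50 for ATP synthase, -0.77 and -0.38 for NDH (the last without smk8-ref replicate 2), -0.42 and 0.03 for ribosomal proteins, -0.79 and -0.44 for RNA polymerase, and -0.81 and -0.53 for ycf. The plastid share of the FPKM sum, smk8-ref minus WT, was -0.22 percentage points and ran between -0.35 and -0.03.

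Of 45 members followed through the settings, 14 turned sign, and none of those passed in any setting. clpP had 0.26 (quantile), 0.0066 (nuclear sum) and 0.16 (plastid sum), and -0.30 to 0.083 with 1 library left out. rpl14 had 0.0024 (TPM), 0.29 (quantile), 0.031 (nuclear sum) and 0.18 (plastid sum), and -0.10 to 0.053 with 1 library left out. rps3 had 0.24 (quantile), 0.15 (plastid sum) and -0.27 to 0.11. GRMZM5G844628 had 0.31 (quantile), 0.14 (plastid sum) and -0.30 to 0.16. GRMZM5G800780 had 0.071 (quantile) and 0.053 (plastid sum), GRMZM5G800980 had 0.17 (quantile) and 0.060 (plastid sum), GRMZM5G815453 had 0.052 (plastid sum), GRMZM5G876106 had 0.093 (quantile), and GRMZM5G866064 had -0.0046 (TMM) and -0.037 to 0.17. GRMZM5G806488 had 0.13 (quantile) and -2.37 to 2.07, ycf70 -0.098 to 0.38, infA 0.045 (quantile), ndhH 0.0090 (quantile), and GRMZM5G853305 -0.012 (TMM) and -0.024 to 0.15. The cause was not tested.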
